A study of Homo sapiens with 44 samples.

Results

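The genes described here are 10 components of the Nodal signalling pathway, taken by symbol and matched to Ensembl identifiers through GENCODE release 29, of 60499 genes in the count table. They are the ligands NODAL, GDF3 and INHBA, the co-receptors TDGF1 and CFC1, the receptor ACVR2B, the transcription factor FOXH1, and the inhibitors LEFTY1, LEFTY2 and CER1. All 10 passed the filter on low counts. CFC1B, a near-identical copy of CFC1, is given beside it.

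Nodal is a secreted ligand of the TGF-beta family that patterns the early embryo and, as cells leave pluripotency, drives formation of mesoderm and endoderm at the primitive streak. It signals through type I and type II activin receptors together with a co-receptor of the EGF-CFC family, and the SMAD proteins activated in this way act in the nucleus with FOXH1. The Lefty proteins and Cerberus (CER1) bind pathway components outside the cell and limit the signal, and the genes for Lefty proteins and for Nodal itself are known targets of the pathway.

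H1 is an established human embryonic stem cell line, and all 44 libraries came from H1 cells with no genetic change named in the labels. The pluripotent group grew on the laminin LN-521 alone (3 wells), and no compound is named for them. All other wells were coated with LN-521 and LN-221 and were sampled at days 0, 1, 3, 14, 20, 30 and 90 (3 wells each) and at days 5, 7, 9 and 11 (5 wells each). Day 0 cells were in Nutristem medium, CHIR99021, an inhibitor of the kinase GSK3, was given from day 0, and IWP2, an inhibitor of Wnt secretion, from day 3. The medium at days 1 to 9 held B27 without insulin, and from day 11 on it held the CTS B-27 supplement. No well was kept without CHIR99021 or IWP2 beyond day 0, so time in culture, the compounds and the medium cannot be told apart. All wells belong to 1 cell line, the labels do not say that they were separate differentiations, and p-values therefore measure the spread between these wells only.

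Libraries held 6937136 to 33498022 estimated counts. Levels are CPM, a gene's counts relative to the TMM-scaled total of its library, unless TPM, which also corrects for transcript length, is named. A gene was called when its adjusted p in edgeR's quasi-likelihood test over 22955 genes was under 0.05 and its log2 change was at least 1 in either direction. Marker lists went with the labelled stages: the summed level of 5 pluripotency genes averaged 4978 CPM in pluripotent cells and 11.5 CPM at day 90, that of 4 primitive streak genes was 1.75 CPM at day 0 and 935 CPM at day 1, and that of 5 cardiomyocyte genes was 42.8 CPM at day 3 and 7537 CPM at day 7. The wells of day 11 were of 2 kinds. Wells 1 and 2 held 4517 and 8599 CPM of 7 endoderm marker genes and 7229.8 and 4681 CPM of the cardiomyocyte genes, with RNA integrity numbers of 8.6 and 8, whereas wells 5, 6 and 7 held 164 to 182 CPM and 17422 to 18600.5 CPM, with integrity numbers of 9.2 to 9.5. Results that rest on day 11 are given with and without wells 1 and 2. The day 14 wells held 2462 to 4013 CPM of the endoderm genes, and the day 9 wells 507 to 6129 CPM. Without wells 1 and 2, day 14 against day 11 therefore compares wells that differ widely in these genes. The part of that difference in the calls was not tested, and this fit is not a cleaner one. In bulk RNA, fewer cells of a type and less RNA per cell cannot be told apart.

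**Figure D1:**
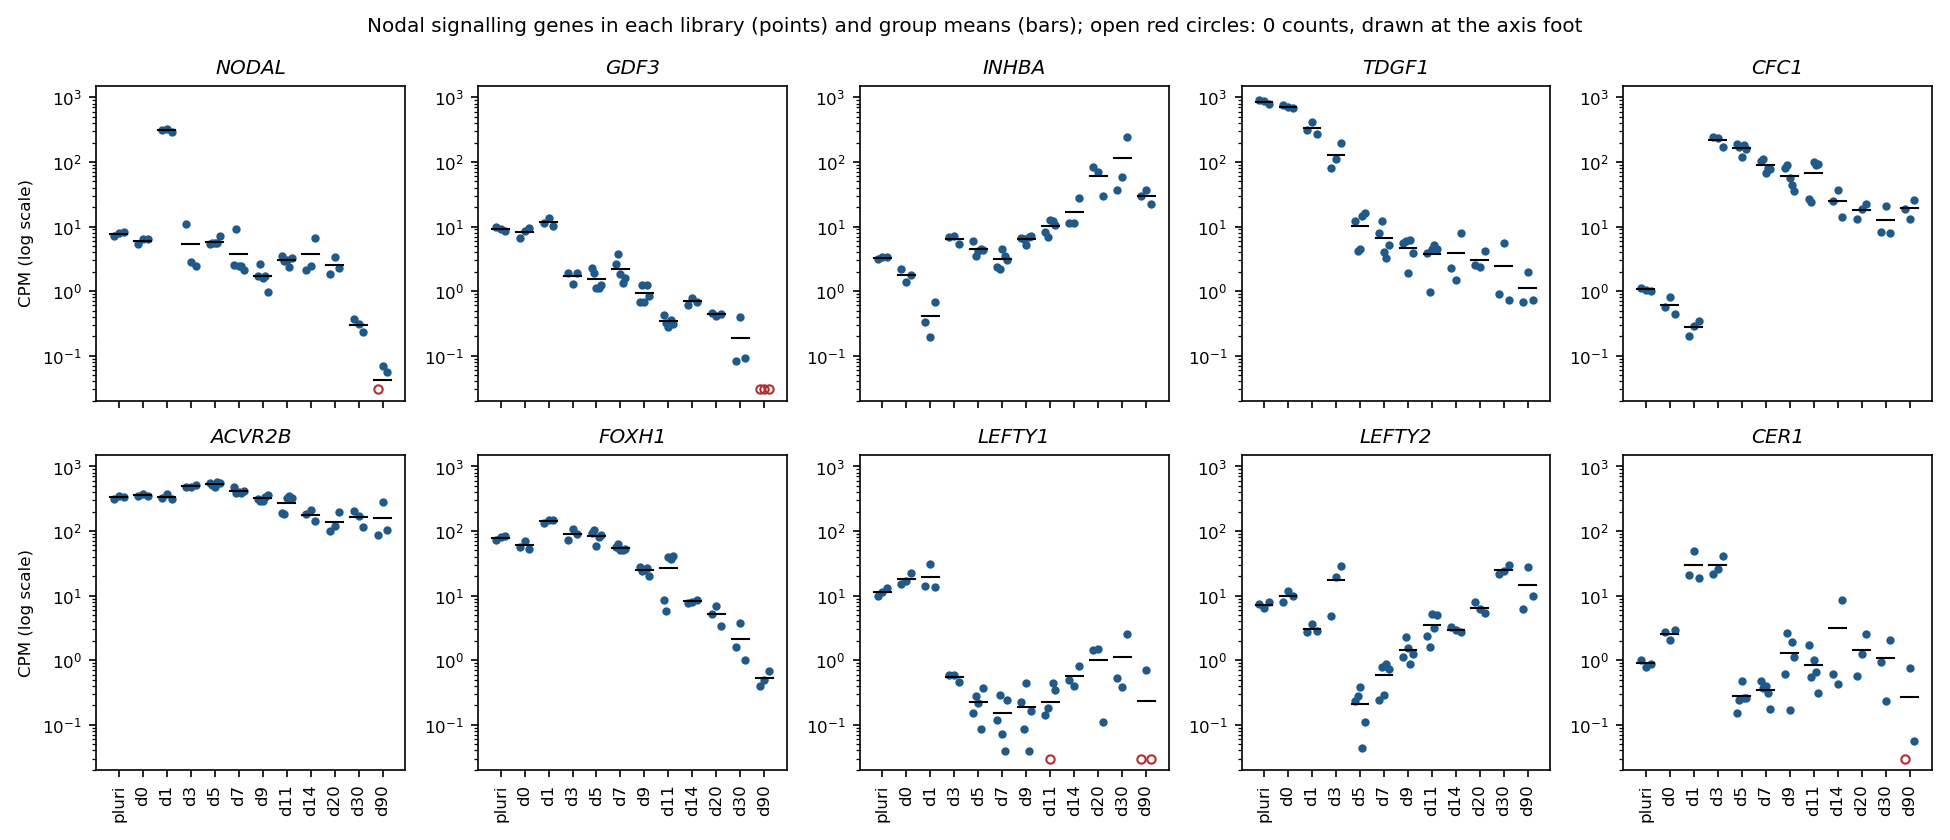
Level of each of the 10 genes in every library (points, CPM on a log axis) for the pluripotent group and days 0 to 90, with group means as bars and libraries at 0 counts as open red circles at the foot. NODAL stands at 290 to 319 CPM at day 1 and at 10.8 CPM or lower in every other library, and CFC1 appears between day 1 and day 3.

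The ligand NODAL was high at 1 sampled day only. Its level was 7.03, 7.99 and 8.24 CPM in the pluripotent wells, 5.3, 6.32 and 6.32 CPM at day 0, 314, 319 and 290 CPM at day 1, and 10.8, 2.87 and 2.49 CPM at day 3. The day 1 wells stood far above all others, the day 0 and day 3 ranges overlapped, and well 1 of day 3 was the highest well outside day 1. Day 0 averaged 5.98 ± 0.587 CPM and day 1 averaged 308 ± 15.2 CPM (SD, n = 3 each). NODAL thus rose 51.4-fold, by 5.68 on the log2 scale (SE 0.50, adjusted p 6.7e-11 by edgeR). From day 1 to day 3 it fell by 5.83 on the log2 scale (SE 0.50, edgeR adjusted p 1.7e-11). Both comparisons use the day 1 wells. Day 3 against day 0, which does not use them, gave a log2 change of -0.15 (SE 0.42, edgeR adjusted p 0.85).

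After day 3, NODAL stayed at low levels. It was 5.34 to 7.03 CPM at day 5, between 2.16 and 2.5 CPM in 4 wells of day 7 with 9.13 CPM in well 10, 0.976 to 2.61 CPM at day 9 and 2.36 to 3.48 CPM at day 11. In the order of the 12 group means, day 1 and the pluripotent group came first, each without overlap with the next group. Day 0, day 5, day 3, day 7, day 14, day 11, day 20 and day 9 followed, each overlapping its neighbour, and day 30 and day 90 came last without overlap. Day 20 wells held 1.84, 3.42 and 2.26 CPM and day 30 wells 0.367, 0.312 and 0.232 CPM, with no overlap and a log2 change of -2.95 (SE 0.62, edgeR adjusted p 0.0042). That call was not made when only these 2 groups were fitted (adjusted p 0.31), a fit in which 0 genes were called. At day 90 the 3 wells held 2 counts of NODAL in all against 227 counts in the 5 wells of day 9, a ratio of 45.6 with a 95% counting interval of 12.5 to 379. Day 1 libraries were sequenced in lanes 1, 2 and 3, and the day 30 wells in lanes 2, 3 and 4 held 9, 5 and 4 counts of NODAL. Whether reads from other libraries of a lane enter such low levels was not tested. NODAL shares 35.8% of its 150-base stretches with AC022532.1 on the opposite strand, which averaged 0.182 CPM at day 30 and 0.0755 CPM at day 90, close to NODAL itself (0.303 and 0.0419 CPM), so the lowest NODAL levels are uncertain. At day 1 that gene averaged 0.0869 CPM.

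GDF3, a ligand related to Nodal, was present in pluripotent cells and went down after day 1. Pluripotent wells held 9.85, 9.31 and 8.6 CPM, day 0 wells 6.71, 8.62 and 9.63 CPM, and day 1 wells 11.4, 13.6 and 10.1 CPM. Day 3 wells held 1.91, 1.3 and 1.92 CPM, all below every earlier well, a 6.84-fold lower mean than at day 1 and a log2 change of -2.77 (SE 0.35, edgeR adjusted p 1.2e-07). GDF3 was called lower in 3 further steps, of which 2 were day 9 against day 7 (log2 change -1.24, edgeR adjusted p 0.0073) and day 11 against day 9 (-1.46, edgeR adjusted p 0.0045). Without well 10 of day 7, which was highest at 3.73 CPM, the former was -0.98 and under the limit of 1, while without wells 1 and 2 of day 11 the latter was -1.56. Both calls were lost in both limma fits (limma adjusted p 0.16 to 0.89), and the day 11 wells held only 7 to 9 counts each. The 5 wells of day 9 held 125 counts of GDF3 and the 3 wells of day 90 held 0, so the level was at least 5.52-fold lower, taking 3 counts per library as the floor. The third called step was day 90 against day 30, which rests on 9 counts in all at day 30 against 0, so no fold is given. That call (edgeR adjusted p 0.015) was lost without well 10 of day 30 or well 2 or 5 of day 90, each left out alone (edgeR adjusted p 0.059 to 0.078), and in both limma fits. Day 14 against day 11 was not called with all wells (1.05, edgeR adjusted p 0.12) and was called higher without wells 1 and 2 of day 11 (1.18, edgeR adjusted p 0.049).

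INHBA, whose product forms activin A, a ligand that uses the same receptors without a co-receptor, had a different course. It was 3.13 to 3.35 CPM in pluripotent cells, 2.18, 1.36 and 1.76 CPM at day 0, 0.337, 0.193 and 0.685 CPM at day 1 and 6.99, 7.07 and 5.4 CPM at day 3. The day 1 wells were the lowest of the series and none of these ranges overlapped. The fall to day 1 was -2.11 (SE 0.54, adjusted p 0.0039) and the rise to day 3 was 3.98 (SE 0.53, adjusted p 2.9e-07) on the log2 scale by edgeR, again with the day 1 wells in both, and day 3 against day 0 gave 1.87 (SE 0.46, edgeR adjusted p 0.002). INHBA thus moved in the opposite direction to NODAL at both steps. The day 1 wells held only 6 to 22 counts, and limma did not keep all calls. On log2(TPM + 1) the fall was -0.21 (limma adjusted p 0.96) and the rise 0.97 (limma adjusted p 0.17). Day 3 against day 0 was 0.76 there (limma adjusted p 0.32). On log2(TPM + 0.1) only the fall lost its call (-0.98, limma adjusted p 0.39).

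Late cultures held the most INHBA, and their wells differed widely. Day 14 wells had 11.4, 11.4 and 27.5 CPM, day 20 wells 83.9, 71.1 and 29.6 CPM, day 30 wells 37.2, 59 and 245 CPM, and day 90 wells 30.1, 36.9 and 22.4 CPM. The day 14 and day 20 ranges did not overlap, but the step was not called (log2 change 1.87, edgeR adjusted p 0.11). It was called without well 6 of day 14 (2.37, edgeR adjusted p 0.023), without well 3 of day 20 (2.15, edgeR adjusted p 0.01), and under 3 other settings. The fall from day 30 to day 90 (-1.94, SE 0.43, edgeR adjusted p 0.0036) rested on well 3 of day 30, and without it the change was -0.71 (edgeR adjusted p 0.29). Day 90 against day 9 gave 2.20 (SE 0.37, edgeR adjusted p 8.7e-06). The sum of 5 stroma and smooth muscle marker genes was 2566 CPM in well 3 of day 30 and 2130.3 and 894 CPM in wells 1 and 10, and its part in the INHBA level was not tested.

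The 2 co-receptors changed places between day 1 and day 5. TDGF1 (Cripto), long used as a marker of undifferentiated cells, was 905, 885 and 783 CPM in pluripotent wells, 760, 709 and 691 CPM at day 0, 314, 417 and 275 CPM at day 1 and 79.4, 111 and 194 CPM at day 3. At day 5 it was 12.3, 4.15, 4.41, 14.3 and 16.4 CPM. Each of these 5 groups lay below the one before it without overlap.

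The steps of TDGF1 to day 1 (log2 change -1.10, SE 0.56, adjusted p 0.17 by edgeR) and to day 3 (-1.39, SE 0.57, adjusted p 0.064 by edgeR) were not called one by one. Fitted with only the compared groups both were called (edgeR adjusted p 8.6e-05 and 0.0027). The longer comparison of day 3 with day 0 was called (-2.49, SE 0.59, edgeR adjusted p 0.0014), as was day 5 against day 3 (-3.63, SE 0.51, edgeR adjusted p 1.6e-06). Later wells held 0.672 to 12.3 CPM. Day 90 was lower than day 9 (-2.12, edgeR adjusted p 0.0099) with overlapping ranges, a call lost without well 2 or well 5 of day 90 (edgeR adjusted p 0.063 and 0.055). In each of the 5 lanes the lowest TDGF1 level was 0.566% to 1.47% of the lane's mean level, and whether reads from other libraries of a lane enter such low levels was not tested. The processed copy TDGF1P3 shares 6.9% of the 150-base stretches of TDGF1 and had 13.7 CPM in pluripotent cells and 1.95 CPM at day 3.

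CFC1 (Cryptic), the other EGF-CFC co-receptor, was nearly absent until day 1. It was 1.02 to 1.13 CPM in pluripotent cells, 0.449 to 0.799 CPM at day 0 and 0.202, 0.289 and 0.342 CPM at day 1. At day 3 it was 246, 238 and 171 CPM, a log2 change of 9.59 (SE 0.63, edgeR adjusted p 2.1e-14). No other step of the 10 genes was as large. Day 5 wells held 119 to 189 CPM, overlapping day 3, and day 7 wells 67.2 to 112 CPM.

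CFC1 lies on chromosome 2 (chr2:130592168-130599575, minus strand, GRCh38) and its copy CFC1B lies nearby on the other strand (chr2:130521197-130528604). The coding sequences are 669 bases long and differ at 2, both of which lie in the 60-base coding stretch shown here, with the differing bases in capitals. Within the coding sequence, only these bases can assign a read to one copy.
CFC1 (chr2:130598657-130598716, minus strand): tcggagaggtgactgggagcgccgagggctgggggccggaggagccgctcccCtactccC
CFC1B (chr2:130522056-130522115, plus strand): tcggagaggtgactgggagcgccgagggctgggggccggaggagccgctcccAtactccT

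Of the 150-base stretches in CFC1 transcripts 65.9% also occur in CFC1B, and the 275 bases of promoter that could be aligned were identical. The authors' counts gave CFC1B 5.01, 5.66 and 5.21 CPM at day 3, 2.42% of the counts of the pair. The split between the copies is therefore uncertain, and the sum of both changes little from the CFC1 value at day 3.

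Per transcript length the exchange of co-receptors can be read as a share. CFC1 with CFC1B made up 0.0762% to 0.165% of the TPM of both co-receptors at day 1, 78.2%, 73.2% and 52% in the wells of day 3, and 92.1% to 97.9% at day 5. Well 3 of day 3, with the lowest share, had the most TDGF1. From day 7 to day 90 the share stayed between 67.4% and 97.4%, the lowest being well 6 of day 14.

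**Figure D2:**
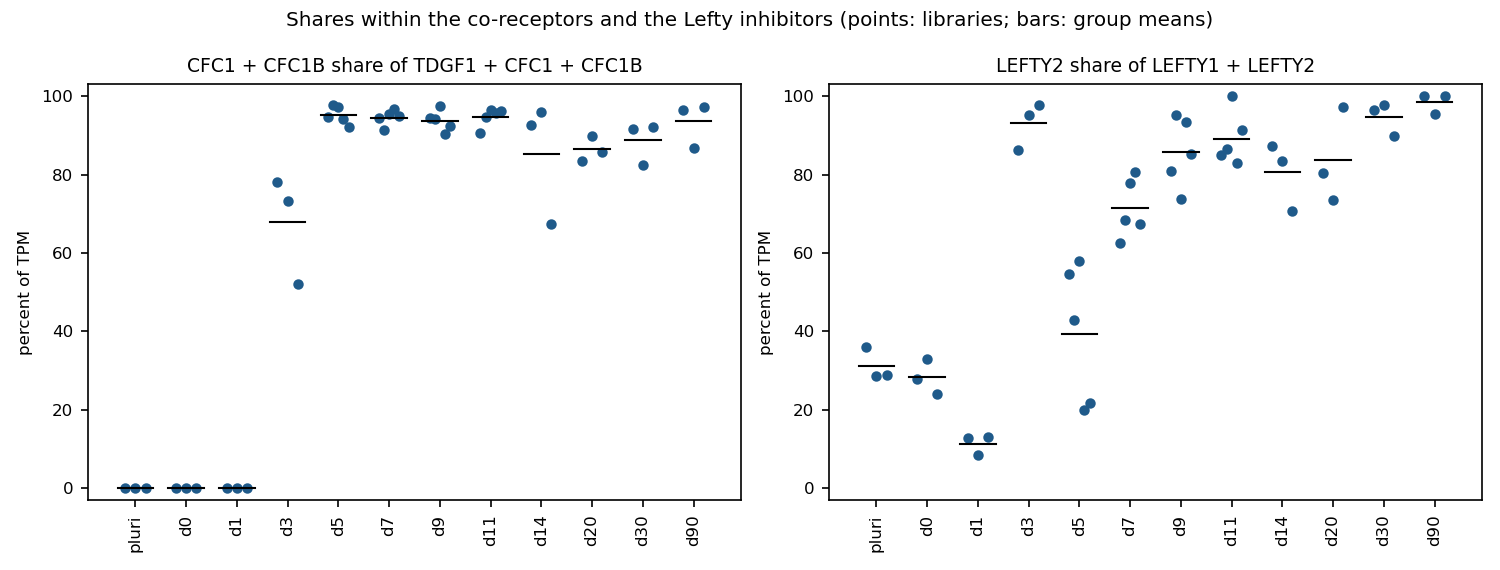
Share of CFC1 plus CFC1B in the co-receptor TPM (left) and of LEFTY2 in the TPM of both Lefty genes (right) in each library (points) with group means (bars), in order of sampling. The co-receptor share goes from under 1% at day 1 to 67.8% on average at day 3 and 95.2% at day 5, and the LEFTY2 share from 11.4% at day 1 to 93.1% at day 3.

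Later levels of CFC1 separated the wells of day 11. Wells 1 and 2 had 26.7 and 24 CPM and wells 5, 6 and 7 had 100, 90.8 and 94.3 CPM, while day 14 wells had 25, 36.3 and 14.2 CPM. Day 14 against day 11 was not called with all wells (log2 change -1.41, edgeR adjusted p 0.058) and was called without wells 1 and 2 (-1.89, edgeR adjusted p 0.0003). The latter fit sets day 11 wells low in endoderm markers against day 14 wells high in them. Day 90 against day 9 gave -1.68 (SE 0.39, edgeR adjusted p 0.00074), from 35.9 to 89.5 CPM at day 9 to 12.9 to 25.8 CPM at day 90.

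ACVR2B, a type II receptor for Nodal and activins, varied least. Its group means ran from 139 CPM at day 20 to 535 CPM at day 5, a 3.86-fold range. Pluripotent, day 0 and day 1 wells lay between 313 and 381 CPM, day 3 and day 5 wells between 478 and 584 CPM, and the day 11 wells again split, with 191 and 186 CPM in wells 1 and 2 and 321, 346 and 330 CPM in the others. None of the 11 steps between neighbouring days was called. Day 90 against day 9 was, at -1.03 (SE 0.26, edgeR adjusted p 0.0014), from 291 to 360 CPM down to 87, 284 and 102 CPM, and it was under the limit of 1 with RLE scaling (-0.95), in DESeq2 (-0.95), with the stricter filter (-0.96) and without well 2 of day 90 (-0.77).

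FOXH1, the DNA-binding partner of activated SMAD2 and SMAD3, was highest at day 1 together with NODAL. It was 72.3, 81.8 and 83.9 CPM in pluripotent cells, 57.6, 71.2 and 53.1 CPM at day 0 and 135, 150 and 146 CPM at day 1. The day 1 wells did not overlap any other group. The rise was 2.37-fold, a log2 change of 1.25 (SE 0.40, edgeR adjusted p 0.021), and it lost its call without well 1 of day 0 (edgeR adjusted p 0.058) or well 3 of day 0 (0.067). Day 3 wells had 72.4, 108 and 90.1 CPM and were not called against day 1 (-0.67, edgeR adjusted p 0.21).

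The decline of FOXH1 afterwards was spread over many steps. It was 51.4 to 62.7 CPM at day 7, 20.1 to 27.8 CPM at day 9, 7.64 to 8.61 CPM at day 14, 3.4 to 6.84 CPM at day 20, 1.02 to 3.75 CPM at day 30 and 0.403 to 0.672 CPM at day 90. Day 9 against day 7 was called (-1.16, SE 0.31, edgeR adjusted p 0.036) although all 10 fits without 1 well gave adjusted p values of 0.054 to 0.099. At day 11, wells 1 and 2 had 8.63 and 5.72 CPM, near the day 14 wells, and wells 5, 6 and 7 had 39.5, 37.2 and 40.7 CPM, above every day 9 well. Day 14 against day 11 was -1.70 (SE 0.39, edgeR adjusted p 0.036) with overlapping ranges, and -2.24 (edgeR adjusted p 2.37e-06) without wells 1 and 2. The call was lost with only the compared groups fitted (edgeR adjusted p 0.49), with a lane term (0.1), with the replicate block (log2 change -0.98, edgeR adjusted p 0.37) and in both limma fits. It was also lost without well 5, 6 or 7 of day 11 or well 2 or 6 of day 14, each left out alone (edgeR adjusted p 0.11 to 0.14). Day 90 against day 30 was called as well (-1.96, edgeR adjusted p 0.031), but not without well 10 of day 30 (-1.34, edgeR adjusted p 0.15) or any 1 well of day 90 (edgeR adjusted p 0.055 to 0.11). The total from day 9 to day 90 was -5.57 (SE 0.53, edgeR adjusted p 1.1e-10). FOXH1 shares 25.7% of its 150-base stretches with KIFC2 on the opposite strand, whose level was 10.8 to 46.3 CPM over all libraries. KIFC2 was at 16.9 CPM or more at day 90, where FOXH1 was lowest. Its group mean was highest at day 1, as was that of FOXH1, at 34.1 CPM against 24 CPM at day 0. The part of shared reads in the FOXH1 level was not tested.

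The Lefty inhibitors lie next to each other on chromosome 1. LEFTY1 is at chr1:225886282-225911382 and LEFTY2 at chr1:225936598-225941489 (minus strand, GRCh38), and 31 of their 1098 coding bases differ. In LEFTY1, 42.2% of the 150-base stretches also occur in the overlapping gene model AL117348.2, which held at most 15 counts in a library. That model held 0 counts from pluripotent cells to day 3. It averaged 0.198 CPM at day 9 and 0.112 CPM at day 90, close to LEFTY1 itself (0.191 and 0.232 CPM). The lowest LEFTY1 levels, and the LEFTY2 shares built on them, are therefore uncertain. In LEFTY2 the share was 6.33% for that gene model and 7.46% for all other genes together. Reads from the 2 genes can thus be told apart over most of LEFTY2.

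LEFTY1 was 9.89, 11.3 and 13.3 CPM in pluripotent cells, 15.1, 16.8 and 22.6 CPM at day 0 and 14.1, 30.4 and 13.4 CPM at day 1. At day 3 it was 0.596, 0.596 and 0.453 CPM, below every earlier well, a log2 change of -5.13 (SE 0.79, edgeR adjusted p 3.9e-06). All later wells held 2.5 CPM or less. Day 3 was also lower than day 0, a comparison without the day 1 wells (-5.04, SE 0.79, edgeR adjusted p 5.2e-06).

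LEFTY2 had another course. It was 8.05, 11.7 and 9.84 CPM at day 0, 2.73, 3.7 and 2.83 CPM at day 1, 4.89, 19.4 and 28.6 CPM at day 3 and 0.0435 to 0.385 CPM at day 5. The steps to day 1, day 3 and day 5 were -1.68 (SE 0.49, adjusted p 0.011), 2.51 (SE 0.50, adjusted p 0.00017) and -6.36 (SE 0.52, adjusted p 1.9e-11) on the log2 scale by edgeR. The first was not called without well 2 of day 0 or wells 1 or 3 of day 1, each left out alone (edgeR adjusted p 0.052 to 0.061). The day 3 wells were uneven, well 1 lying closest to the day 1 range, and the day 0 and day 3 ranges overlapped.

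LEFTY2 returned in late cultures, where LEFTY1 did not reach its early level. The step from day 9 to day 11 was not called with all wells (log2 change 1.29, edgeR adjusted p 0.06) and was called without wells 1 and 2 of day 11 (1.65, edgeR adjusted p 0.013). LEFTY2 was 5.44 to 7.98 CPM at day 20 and 21.3, 24.4 and 29.5 CPM at day 30, with no overlap and a log2 change of 1.94 (SE 0.49, edgeR adjusted p 0.022). This call was lost without well 2 of day 20, with a lane term, with only these groups fitted and with the replicate block (edgeR adjusted p 0.056 to 0.24), and in limma on log2(TPM + 0.1). At day 90 well 4 held 27.8 CPM and wells 2 and 5 held 6.23 and 9.8 CPM. From day 9, with 0.865 to 2.31 CPM, the rise to day 90 was 3.36 (SE 0.44, edgeR adjusted p 9.2e-08). LEFTY2 made up 8.4% to 13% of the TPM of both genes at day 1, 86.3% to 97.8% at day 3, 20% to 57.9% at day 5, where both genes were near the floor, and 89.7% to 97.8% at day 30.

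CER1, the gene for Cerberus, an inhibitor that binds Nodal and is made by the anterior endoderm and the node region of the embryo, rose with NODAL and stayed up longer. It was 1, 0.796 and 0.875 CPM in pluripotent cells, 2.72, 2.03 and 2.9 CPM at day 0, 21.1, 48.8 and 18.9 CPM at day 1, 21.9, 25.6 and 40.4 CPM at day 3, and 0.155 to 0.471 CPM at day 5. Day 1 and day 3 overlapped and stood clear of all other groups. The rise to day 1 was 3.54 (SE 0.80, adjusted p 0.0012), the step to day 3 was -0.01 (SE 0.72, adjusted p 0.9997) and the fall to day 5 was -6.71 (SE 0.79, adjusted p 4.7e-08) on the log2 scale by edgeR. After day 5 the highest well was well 6 of day 14, with 8.55 CPM against 0.603 and 0.431 CPM in the others, and without it the change from day 11 to day 14 turned from 1.93 to -0.77 (edgeR adjusted p 0.14 and 0.74). Without wells 1 and 2 of day 11 it was 2.32 and called (edgeR adjusted p 0.048). Day 90 against day 9 was called with overlapping ranges (-2.41, edgeR adjusted p 0.042), and not without well 3 or 10 of day 9 or well 2 or 5 of day 90, each left out alone (edgeR adjusted p 0.075 to 0.2). The call was also lost with only the compared groups fitted (edgeR adjusted p 0.13), with the replicate block (0.088), with a lane term (0.062) and in both limma fits.

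The RefSeq promoter table (GRCh38.p14) held 6 of the 10 genes, namely NODAL, GDF3, INHBA, CFC1, ACVR2B and CER1. CER1 is shown because its promoter alone among them held a FOXH1 motif, searched as AATACACA or AATCCACA on both strands. The 250 bases before the start (chr9:14722734-14722983, minus strand) carry it in capitals, with its first base at position -154.
CER1: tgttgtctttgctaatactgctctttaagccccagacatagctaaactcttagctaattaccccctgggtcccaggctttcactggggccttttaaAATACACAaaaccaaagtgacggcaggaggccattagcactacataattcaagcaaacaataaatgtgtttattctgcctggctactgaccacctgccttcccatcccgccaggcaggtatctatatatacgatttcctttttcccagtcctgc

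Over 35116 promoter windows of the same length, 300 bases, 1.58% held a FOXH1 motif in either spelling. The CER1 window also held the SMAD motif CAGACA, found in 16.9% of windows, with its first base at position -218. The INHBA window held CAGACA too, with its first base at position 27. A TCF/LEF motif, found in 13.8% of windows, was searched as well, and ACVR2B, GDF3 and INHBA held it while CER1 did not. A match describes the letters of the window and is not a measured binding site.

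Counts of called members are set beside the share of all genes called, and the members were picked as pathway genes with earlier results known. Over the 11 steps between neighbouring days, 9 of the 10 members were called at least once, all but ACVR2B, against 34.8% of all genes tested. For day 0 against pluripotent cells, 0 of 10 members were called and 0 had an unadjusted p under 0.05 by edgeR, and 2.91% of all genes were called (2.73% higher and 0.183% lower).

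At day 1, 3 members were called higher than at day 0 (NODAL, FOXH1, CER1) and 2 lower (INHBA, LEFTY2), against 13.5% of all genes (3.86% higher and 9.66% lower). At day 3, 3 were higher than at day 1 (INHBA, CFC1, LEFTY2) and 3 lower (NODAL, GDF3, LEFTY1), against 17.8% (11% higher and 6.8% lower). The median absolute log2 change of the members at that step was 2.64, and that of all genes was 0.62. At day 5, 3 were lower than at day 3 (TDGF1, LEFTY2, CER1) and 0 higher, against 10.1% (5.75% higher and 4.34% lower). Neighbouring steps share the wells between them. Day 3 set directly beside day 0 called 6 members, with INHBA, CFC1 and CER1 higher and GDF3, TDGF1 and LEFTY1 lower, against 16.6% of all genes (7.81% higher and 8.76% lower).

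**Figure D3:**
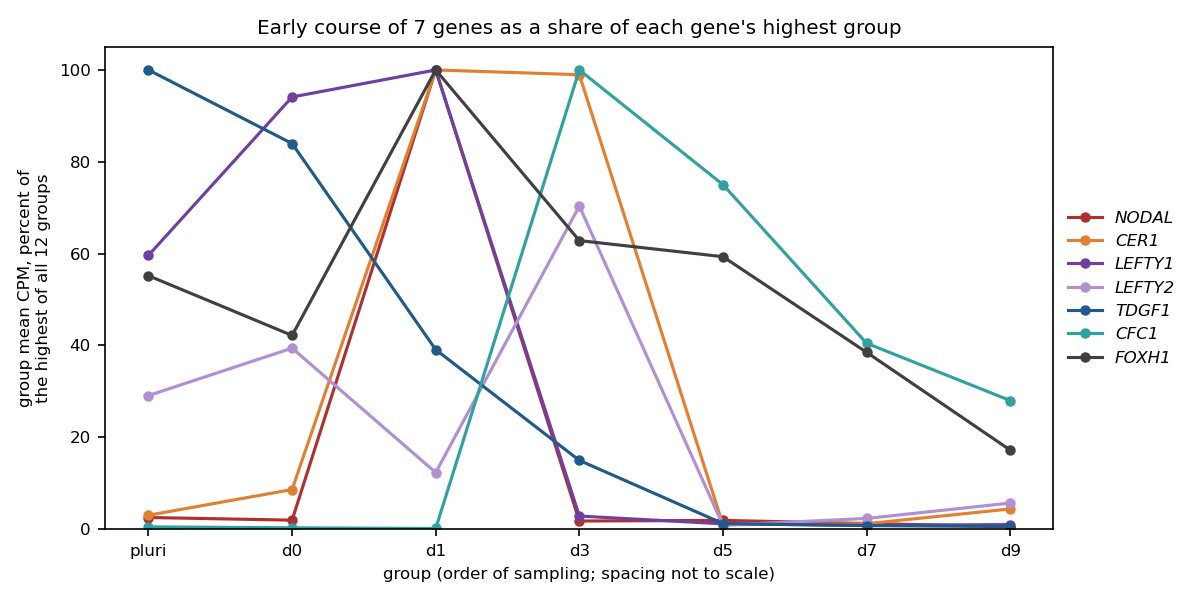
Group mean CPM of 7 genes from pluripotent cells to day 9, each as a percent of its own highest of 12 groups, in order of sampling. NODAL is at 100% at day 1 only, CER1 at day 1 and day 3 is close to its highest level, and CFC1 is at its highest at day 3 when NODAL and LEFTY1 are near 0.

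Later steps held fewer calls. The step to day 7 had 0 of 10 called by edgeR, with 3 at an unadjusted p under 0.05, and 3.65% of all genes called by edgeR (2.74% higher and 0.906% lower). DESeq2 called 1 member there and 964 genes in all, where edgeR called 838. By edgeR, the step to day 9 had 2, both lower (GDF3, FOXH1), against 1.28% (1.02% higher and 0.261% lower). The step to day 11 had 1, GDF3 lower, against 1.63% (0.396% higher and 1.24% lower), and the step to day 14 had 1, FOXH1 lower, against 0.697% (0.484% higher and 0.213% lower). Without wells 1 and 2 of day 11 these last counts were 2 and 4. The share of all genes called in that fit is not given here, so whether calls rose for all genes too cannot be told.

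From day 14 to day 20 the count by edgeR was 0, with 2 members at an unadjusted p under 0.05, while edgeR called 0.0479% of all genes, every one higher. DESeq2 called 1 member there and 42 genes in all, where edgeR called 11. By edgeR, the step to day 30 had LEFTY2 higher and NODAL lower, against 2.02% (0.758% higher and 1.26% lower). The step to day 90 had 3 members lower (GDF3, INHBA, FOXH1), against 5.09% (2.65% higher and 2.44% lower).

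Both long comparisons use the day 9 wells. Day 9 against day 0 called 8 members, 2 higher and 6 lower, against 31.7% of all genes (17.1% higher and 14.6% lower), with ACVR2B and CER1 not called. Day 90 against day 9 called 9, 2 higher and 7 lower, against 23.9% (11.9% higher and 12% lower), with LEFTY1 not called (log2 change 0.02, edgeR adjusted p 0.99).

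**Figure D4:**
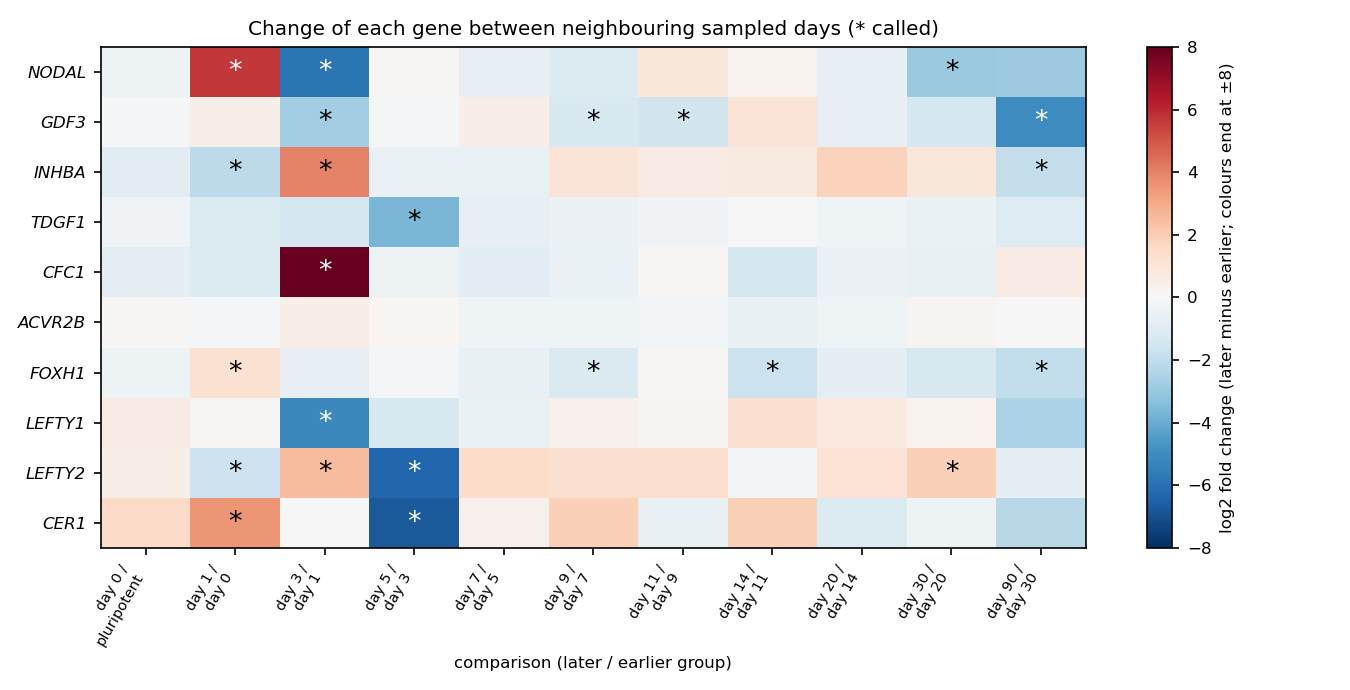
Fitted log2 change of each gene (rows) in the 11 steps between neighbouring sampled days (columns), red for higher and blue for lower in the later group, with called changes starred. Most stars stand in the 3 steps from day 0 to day 5, and ACVR2B has none.

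The other pathway genes, a list of 34 of which all were tested, followed the same timetable in part. From day 0 to day 1, 6 were called higher and 2 lower, against 13.5% of all genes. Of 7 target genes, EOMES rose from 0.383 to 310 CPM, MIXL1 from 0.844 to 313 CPM and GSC from 0.1 to 19.2 CPM on average. FST, the gene for the activin-binding protein follistatin, rose from 17.7 ± 2.7 to 375 ± 96.2 CPM (SD, n = 3 each; edgeR adjusted p 1.4e-08), while INHA and SKIL, a SMAD co-repressor, were lower.

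From day 1 to day 3, 10 of the 34 were higher and 5 lower, against 17.8% of all genes. SOX17 and LHX1 rose to 73.4 and 55.1 CPM, BAMBI, a decoy receptor, to 153 CPM and FURIN, a protease that matures TGF-beta family ligands, to 109 CPM. FST fell back to 21.4 CPM and MIXL1 to 35.7 CPM. SMAD2, SMAD3 and SMAD4, which carry the signal to the nucleus, had 0 calls by edgeR at either step. By edgeR, 2 of the 3 had an adjusted p under 0.05 at each step, with a log2 change under the limit of 1. An unadjusted p under 0.05 was seen for 2 at day 1 and 3 at day 3. The 5 other receptors also had 0 calls by edgeR. At each step 1 of them had an unadjusted and an adjusted p under 0.05, with a log2 change under the limit of 1. Over day 3 against day 0, SMAD3 rose from 14.7 to 49.7 CPM and the receptor gene ACVR1B from 23.6 to 52.8 CPM, and all 7 targets were higher.

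From day 3 to day 5, 2 were higher and 8 lower, against 10.1% of all genes, with EOMES, MIXL1 and LHX1 down to 1.92, 1.06 and 2.89 CPM and TGFB2 up from 4.13 to 140 CPM. Across day 90 against day 9, 4 were higher and 13 lower, against 23.9% of all genes, and all 5 inhibitors of the list were called, 2 higher and 3 lower, with TMEFF1 down from 30.9 to 4.21 CPM and FST from 58.3 to 8.86 CPM. EOMES and MIXL1 are also in the streak marker list and SOX17 and FOXA2 in the endoderm list, whose sum was 16.7 CPM at day 1, 139 CPM at day 3 and 501 CPM at day 5. The part of a change in cell types in the members' levels was not tested.

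Compared per transcript length, TDGF1 was the most abundant member in pluripotent cells, at day 0 and at day 1 (means of 434, 360 and 189 TPM), and NODAL was second at day 1 with 132 TPM. The lowest TDGF1 well of day 1, at 151 TPM, stood above the highest NODAL well, at 140 TPM. CFC1 had the highest mean from day 3 (150 TPM) to day 20 (10.6 TPM). At day 20 its range overlapped that of INHBA (mean 8.32 TPM), which stood above it in well 1. INHBA had the highest mean at day 30 (17.5 TPM) with wells from 3.18 to 42.5 TPM, and at day 90 CFC1 and ACVR2B stood side by side at 4.88 and 4.78 TPM with overlapping ranges. The members together came to 493 TPM in pluripotent cells and 14.8 TPM at day 90.

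The genes most like each member over the 12 group means of log2 CPM, among 7822 candidates, are given as a description. The 12 points are neighbours in time and share 1 cell line and 1 scaling. Pearson's r was 0.97 for NODAL with MAPKAPK5, 0.99 for GDF3 with FAM83G, 0.96 for INHBA with TARSL2, 0.99 for TDGF1 with DAZAP1 and 0.99 for CFC1 with PDGFRA, a growth factor receptor gene of early mesoderm. It was 0.98 for ACVR2B with BLMH, 0.99 for FOXH1 with FBXL19, 0.98 for LEFTY1 with CTDP1 and 0.94 for LEFTY2 with C7orf55-LUC7L2. CER1 was most like PPIAP46 (0.93) and the streak gene TBXT (0.91). Between members, r was 0.90 for GDF3 and FOXH1 and for ACVR2B and FOXH1, and -0.89 for CFC1 and LEFTY1.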

How the data were processed

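RNA of H1 cells was made into libraries with a TruSeq stranded total RNA kit and sequenced as 150-base pairs on an Illumina HiSeq instrument, per the labels' protocols. The authors trimmed with cutadapt, aligned with STAR 2.5.2b and quantified with RSEM 1.2.31 on hg38, per the submitters' processing notes, and the annotation and strand setting are not given in the sources used here. The deposited estimated counts were 93.8% whole numbers and were rounded, and the deposited TPM values were used for levels between genes. RNA integrity is a score per the labels, from 7.4 to 10. Symbols were found for 56769 of 60499 identifiers, and 0 columns lacked a sample.

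Counts were filtered with filterByExpr and scaled with TMM, leaving 22955 genes, and 14 comparisons were tested in 1 fit of the 12 groups with edgeR 4.0.16 (R 4.3.3, quasi-likelihood test, Benjamini-Hochberg adjustment). The procedure was tried on simulated data for day 1 against day 0 only, with the same spread for every gene and well. That simulation does not cover the later steps, whose wells differed more. Totals of 6937136 to 33498022 counts put the floor of 3 counts at 0.0919 to 0.41 CPM, and floors and intervals cover counting error only. The protocol text speaks of 3 wells, whereas the labels give 5 at days 5 to 11. Other pathway genes were named up to 3 per role by the largest absolute log2 change among those called, and likeness used genes with at least 10 TPM in their highest group and log2 CPM with a prior count of 1. The members and lists were chosen with earlier results of these data known. Alternatives were RLE scaling, DESeq2 1.42.0, other filters, only the compared groups, a replicate block, a lane term, limma 3.58.1 on log2(TPM + 1) and log2(TPM + 0.1), and leaving out each well. The fit without wells 1 and 2 of day 11 was chosen after seeing the data. One sequence comparison is not reported here.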

Additional observations from a re-analysis of the deposited data

Results flagged for a closer look

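In groups of 5 wells with a mean of at least 1 CPM, the gap of the highest or lowest well to its neighbour was compared with Dixon's limit in 29 groups, of which chance flags about 1 in 20, and 2 stood out. NODAL was 7.03 CPM in well 5 of day 5 against a group median of 5.55 CPM and a lowest well of 5.34 CPM. NODAL was 9.13 CPM in well 10 of day 7 against a median of 2.48 CPM and a lowest well of 2.16 CPM. The sum of the pluripotency markers was highest in that day 7 well too, at 171 CPM, and its part in the NODAL level was not tested. Without that well, day 7 against day 5 was called for NODAL (log2 change -1.28, edgeR adjusted p 0.0057).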

How the results depend on the processing

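The 10 genes gave 46 called changes over the 14 comparisons. Direction and call stayed as reported in 372 of 415 fits with another setting and in 291 of 330 fits without 1 well. The change of CER1 from day 11 to day 14, not called, turned to -0.77 without well 6 of day 14 and was called without well 3 (2.42). Where counts of called members moved by over 1.5 times, the cause was not tested. With only the compared groups fitted they were 1 for the step to day 0 and 0 for the step to day 14, the step to day 30 and the step to day 90. DESeq2 gave 1 for the step to day 7, 4 for the step to day 9, 2 for the step to day 11, 2 for the step to day 14 and 1 for the step to day 20. With no filter there were 2 for the step to day 14 and 1 for the step to day 20, and the stricter filter gave 2 for the step to day 11. A lane term gave 0 for the step to day 14 and 1 for the step to day 30. Both limma fits gave 3 for the step to day 1, 1 for the step to day 7, 0 for the step to day 9, the step to day 11 and the step to day 14, and 1 for the step to day 30, and with TPM + 1 there were 4 for day 90 against day 9. Without wells 1 and 2 of day 11 the counts were 2 against day 9 and 4 for day 14, with no share of all genes given beside them.

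Same-numbered wells were not shown to pair, with mean correlations of -0.13 to 0.46. The rule needed at least 3 shared numbers, so comparisons with 2 could not meet it and pairing there is undecided. Among these, the correlations averaged 0.46 (lowest 0.45) for the step to day 20 and -0.13 (lowest -0.23) for the step to day 30. The replicate block gave 1 member for the step to day 7, 0 for the step to day 14 and 1 for the step to day 20. For the step to day 30 the count stayed at 2, with LEFTY2 lost (1.70, edgeR adjusted p 0.056) and GDF3 gained (-1.77, edgeR adjusted p 0.033). Under the block, calls over all genes went from 160 to 0 for the step to day 14 and from 11 to 68 for the step to day 20. No paired analysis was possible for the step to day 90 because day 30 and day 90 share no number.

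Without 1 well, the counts ranged from 0 to 0 for the step to day 0, 4 to 5 for the step to day 1, 6 to 7 for the step to day 3, 3 to 3 for the step to day 5, 0 to 1 for the step to day 7, 0 to 1 for the step to day 9, 1 to 2 for the step to day 11, 0 to 3 for the step to day 14, 0 to 1 for the step to day 20, 1 to 4 for the step to day 30 and 1 to 5 for the step to day 90. They ranged from 6 to 7 for day 3 against day 0, 8 to 8 for day 9 against day 0 and 6 to 9 for day 90 against day 9.

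Calls over all genes moved most in the late steps. With only the compared groups fitted they went from 669 to 1592 for the step to day 0, 293 to 497 for the step to day 9, 160, 11 and 463 to 0 for the steps to day 14, day 20 and day 30, and 1168 to 2 for the step to day 90. DESeq2 gave 416, 42 and 711 for the steps to day 14, day 20 and day 30, no filter 22 for the step to day 20, and the lane term 12, 19 and 730 for the steps to day 14, day 20 and day 90. Limma on log2(TPM + 1) gave 974 in place of 3102 for day 1, 1717 in place of 4093 for day 3 and 1050 in place of 2317 for day 5, and on log2(TPM + 0.1) 3550 for the step to day 90. There the median of all genes was -0.68 and 3.58% of calls were higher, against 52.1% with edgeR. For day 90 against day 9 limma on log2(TPM + 1) put 19.8% of calls higher against 49.9%. The same fit put 27.8% higher against 57% for the step to day 5, 30.5% against 54.1% from day 0 to day 9 and 66.9% against 47.1% from day 0 to day 3. Levels under 0.0919 to 0.41 CPM, depending on the library, lie below 3 counts.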
